A study of Mus musculus with 9 samples.

Results

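A set of 6 genes that act on microtubules was followed across 9 hemibrain RNA-seq libraries: *Map1a*, *Map1b*, *Map2*, *Clasp2*, *Ttll7* and *Ccp110*. They were taken by symbol from the deposited table, and all 6 of 6 were found among its 689 genes. The libraries came from 3 groups of male C57BL/6J mice, with 3 mice in each group and 1 frozen hemibrain per mouse. Young controls, 5 months old by the labels, and aged controls, 24 months old, received control diet for 6 weeks. Aged-repopulated mice, also 24 months old, received for 2 weeks chow with PLX5622, an inhibitor of the CSF1 receptor that microglia need to survive, and then control diet for 4 weeks while new microglia filled the brain. No transgene or Cre is given for any group. Supplier (JAX for young, NIA for aged mice) and age cannot be told apart.

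Microtubules are polymers of alpha- and beta-tubulin that carry cargo along axons and dendrites and give neurites their shape. Structural microtubule-associated proteins bind along the lattice, plus-end tracking proteins act at the growing tip, and enzymes such as the glutamylases write chemical marks on the tubulin tails that motors and other proteins read. In neurons, *Map1b* is known for its role in growing axons, *Map1a* for its abundance in mature neurons, and *Map2* as a marker of dendrites and cell bodies. *Clasp2* encodes a plus-end protein that keeps microtubules from shrinking, and *Ttll7* encodes a polyglutamylase of tubulin. *Ccp110* encodes the centriole protein CP110, which caps centrioles and restrains the growth of cilia. Despite a similar abbreviation it is not one of the cytosolic carboxypeptidases that remove glutamates from tubulin, so that *Ttll7* is the only tubulin-modifying enzyme among the 6 genes.

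Levels are RPKM, a read number divided by transcript length and by sequencing depth, so that different genes can be set side by side per length. The transcript length that the authors used for each gene is not given in the sources used here, and *Map2* and *Clasp2* have splice forms of differing length. A search of the low values of 120 genes for steps worth 1 read each found none. It used annotated lengths, and with lengths other than the authors' own such steps could not be seen. How deeply each library was read is thus unknown, as no counts are given. Error is therefore given as the variation among the 3 mice of a group. Only genes that passed the authors' own model, which included these mice, are in the table. A call on any gene of the table, the 6 included, is therefore not independent of how the table was made. Differences were tested with limma on the log2(RPKM + 1) scale, which understates the change of low genes. The fit took in all 9 libraries, and p values were adjusted by the Benjamini-Hochberg method across the table. A gene is called here where its adjusted p is under 0.05. Over the table, 319 genes were called higher and 114 lower in aged than in young controls, and 20 higher and 40 lower after repopulation. With each library centred on its median these numbers were 78 and 215 with age, and 111 and 22 with repopulation. The median difference over the table with age was 0.096 on the log2 scale, and -0.012 with centring.

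*Map1a*, *Map1b*, *Ttll7* and *Ccp110* were both called lower in aged than in young controls and called higher after repopulation, which held for 1.89% of the table. Their promoters are shown because these 4 genes met the threshold in both contrasts. *Clasp2* missed it with repopulation (adjusted p of 0.059 from limma). Sequences from RefSeq (GRCm38.p6) were found for all 6 genes, running from 250 bases before to 50 bases after the start. The windows are chr2:121289352-121289651 on the plus strand for *Map1a*, chr13:99516553-99516852 on the minus strand for *Map1b*, chr3:146852117-146852416 on the plus strand for *Ttll7* and chr7:118712293-118712592 on the plus strand for *Ccp110*. Capitals mark the GC box GGGCGG and the TATA sequence TATAAA, on either strand.
Map1a: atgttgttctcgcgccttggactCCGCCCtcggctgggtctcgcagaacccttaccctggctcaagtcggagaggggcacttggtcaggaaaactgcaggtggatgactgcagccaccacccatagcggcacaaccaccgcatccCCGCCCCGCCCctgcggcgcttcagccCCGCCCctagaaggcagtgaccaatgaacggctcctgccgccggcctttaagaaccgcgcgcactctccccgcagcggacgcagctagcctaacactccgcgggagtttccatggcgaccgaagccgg
Map1b: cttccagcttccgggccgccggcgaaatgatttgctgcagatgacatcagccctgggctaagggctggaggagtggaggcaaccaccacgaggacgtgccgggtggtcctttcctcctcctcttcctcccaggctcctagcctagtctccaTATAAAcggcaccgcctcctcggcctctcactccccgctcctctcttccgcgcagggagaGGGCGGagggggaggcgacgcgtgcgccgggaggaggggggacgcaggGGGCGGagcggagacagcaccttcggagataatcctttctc
Ttll7: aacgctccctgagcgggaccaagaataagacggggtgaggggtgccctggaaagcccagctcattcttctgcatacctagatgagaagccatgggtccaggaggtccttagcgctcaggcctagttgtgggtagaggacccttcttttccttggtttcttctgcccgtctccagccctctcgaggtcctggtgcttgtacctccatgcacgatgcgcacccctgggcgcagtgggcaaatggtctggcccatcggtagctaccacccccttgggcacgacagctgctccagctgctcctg
Ccp110: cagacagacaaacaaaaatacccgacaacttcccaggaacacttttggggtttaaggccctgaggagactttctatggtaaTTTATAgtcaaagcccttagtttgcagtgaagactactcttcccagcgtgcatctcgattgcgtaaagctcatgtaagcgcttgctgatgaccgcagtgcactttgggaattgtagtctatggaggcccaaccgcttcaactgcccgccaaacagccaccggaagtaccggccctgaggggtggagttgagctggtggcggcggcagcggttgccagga
Neither sequence occurs in all 4 windows. Both strands were searched, and 2 of the *Map1a* GC boxes overlap each other. The GC box was found 4 times in *Map1a*, 2 times in *Map1b*, and 0 times in *Ttll7* and *Ccp110*, against 35.7% of 32851 mouse promoters that hold it. In these 4 windows TATAAA was found 1 time each in *Map1b* and *Ccp110*, against 13.6% of all promoters that hold it. The *Map2* window held 5 GC boxes, and the last of the 3 *Clasp2* windows held TATAAA 4 times. The first of the 3 *Clasp2* windows held the cyclic AMP response element TGACGTCA, which 1.79% of all promoters hold, and none of the other windows of the 6 genes did. The GC content was 65.7% for *Map1a* and *Map1b*, 60.0% for *Ttll7* and 52.7% for *Ccp110*, against a median of 52.7% over all promoters. A match of these letters is a description of the window and no evidence that a factor binds there.

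In the aged controls all 6 genes were lower than in the young controls, and in no gene did the values of the 2 groups overlap. Over the table, 19.4% of genes had aged controls wholly below young controls. All 6 genes were called lower in the aged controls, against 16.5% of the table. Their median log2 difference was -0.17, where the median over the table was 0.096. After repopulation all 6 means were higher than in the aged controls. In 5 of the 6 genes the groups did not overlap, against 15.2% of the table with aged-repopulated libraries wholly above. The 4 genes *Map1a*, *Map1b*, *Ttll7* and *Ccp110* were called higher, against 2.9% of the table, and *Clasp2* and *Map2* were not. The median log2 difference of the 6 genes with repopulation was 0.17, and that of the table was -0.047. The 2 contrasts use the same 3 aged control libraries, so that a low value in those libraries counts in both. The study itself names *Map1a*, *Map1b*, *Clasp2* and *Ttll7* as lower in aging and restored by repopulation, from data that include these mice. The 6 genes were chosen with earlier results of these data known. Their counts beside the shares of the table are therefore a description and no test.

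**Figure D1:**
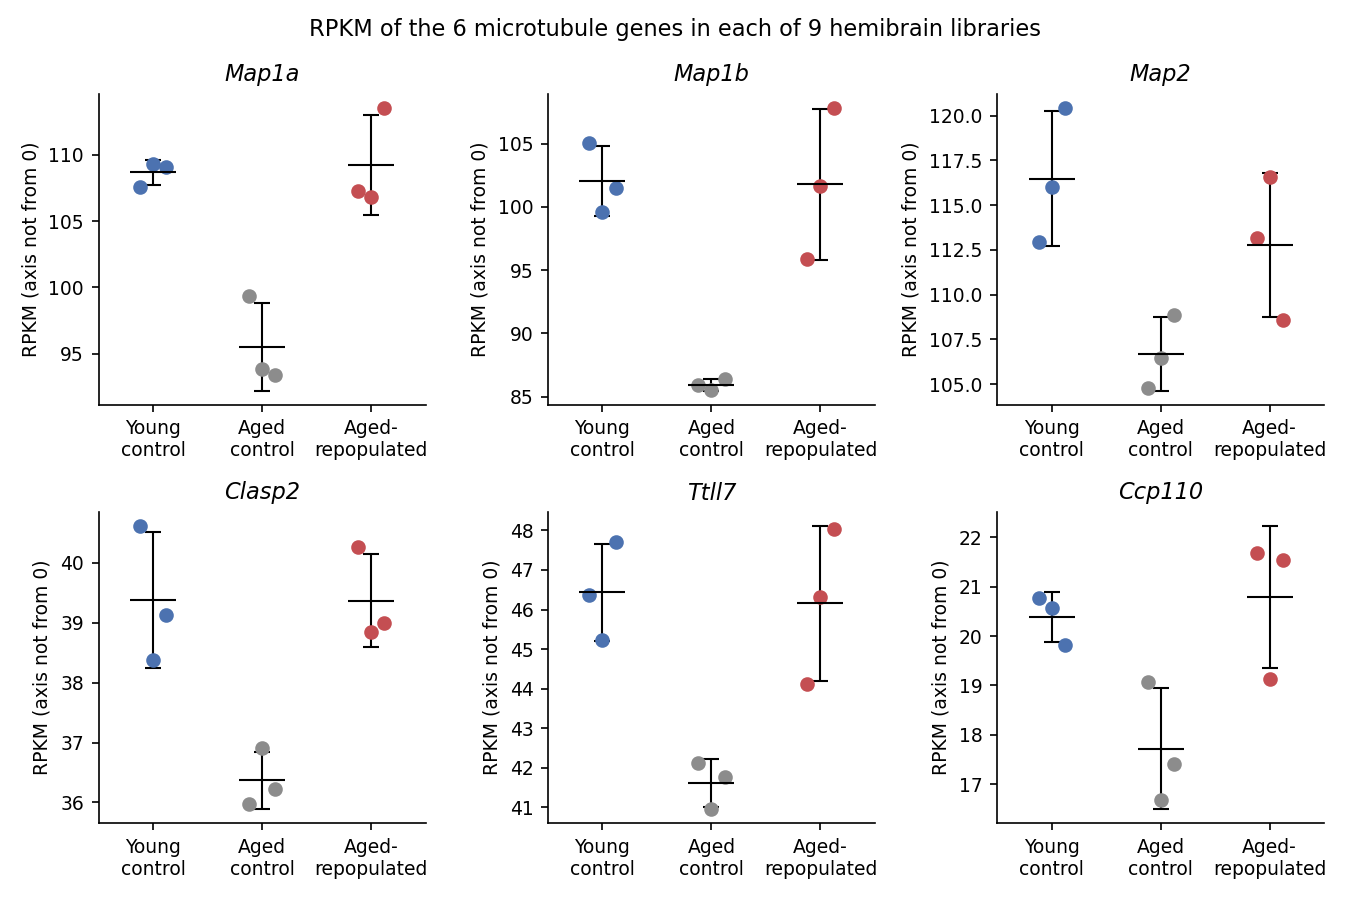
RPKM of each of the 6 genes (vertical axes, not starting at 0) in the 3 young control, 3 aged control and 3 aged-repopulated libraries; points are libraries, horizontal bars are means and error bars are the SD (n = 3). The aged control points lie below both other groups in every panel except *Map2*, where the aged-repopulated library P03 (109 RPKM) falls just under the highest aged control library P12.

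Among the structural proteins, *Map1a* (GRCm38 chromosome 2, 121289600 to 121310832) was at 108, 109 and 109 RPKM in the young control libraries P07, P08 and P09. In the aged control libraries P10, P11 and P12 it was at 99.4, 93.9 and 93.4 RPKM. In the aged-repopulated libraries P01, P02 and P03 it was at 107, 107 and 114 RPKM. The young controls were nearly identical to each other (SD 0.97, n = 3), all 3 aged controls lay at least 7.46 RPKM below every other library, and the aged-repopulated libraries spanned the young range. The mean changed by -12.1% with age and was 14.3% higher with repopulation. The log2 difference was -0.18 with age (SE 0.037, adjusted p of 0.0079 from limma) and 0.19 with repopulation (SE 0.037, adjusted p of 0.031 from limma).

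*Map1b*, on chromosome 13 from 99421446 to 99516540, had the largest difference of the 6 genes on the log2 scale in both contrasts. The young control libraries P07, P08 and P09 were at 105, 99.6 and 102 RPKM. The aged control libraries P10, P11 and P12 were at 85.9, 85.5 and 86.4 RPKM, a spread of 0.458 (SD, n = 3). The aged-repopulated libraries P01, P02 and P03 were at 95.9, 102 and 108 RPKM, the widest spread of *Map1b* in any group (SD 5.99, n = 3). All aged controls lay at least 9.47 RPKM below every other library. The log2 difference was -0.25 with age (95% confidence interval from -0.34 to -0.15) and 0.24 with repopulation (from 0.14 to 0.34). By limma the adjusted p was 0.0066 and 0.023. It was the only one of the 6 genes still called with repopulation at a stricter threshold of 0.025.

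*Map2*, on chromosome 1 from 66175273 to 66442583, had the highest mean level of the 6 genes in each group and behaved least like the others. It was at 113, 116 and 120 RPKM in the young control libraries P07, P08 and P09. It was at 105, 106 and 109 RPKM in the aged control libraries P10, P11 and P12, and at 113, 117 and 109 RPKM in the aged-repopulated libraries P01, P02 and P03. The aged controls lay below the young controls, while the aged-repopulated library P03 fell 0.29 RPKM under the highest aged control library. The log2 difference with age was -0.12 (SE 0.038, adjusted p of 0.020 from limma). With repopulation it was 0.079, with a 95% confidence interval from -0.0069 to 0.16 and an adjusted p of 0.148 from limma, so that a rise of the size seen in *Ttll7* is within the interval. P03 held the lowest *Map2* value of the aged-repopulated group and the highest values of *Map1a*, *Map1b* and *Ttll7*.

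*Clasp2*, the plus-end gene, lies on chromosome 9 from 113741473 to 113919682. It was at 40.6, 38.4 and 39.1 RPKM in the young control libraries P07, P08 and P09, and at 36.0, 36.9 and 36.2 RPKM in the aged control libraries P10, P11 and P12. The aged-repopulated libraries P01, P02 and P03 were at 40.3, 38.8 and 39.0 RPKM. The aged controls lay below both other groups without overlap, by at least 1.48 RPKM. The log2 difference was -0.11 with age (SE 0.033, adjusted p of 0.019 from limma). With repopulation it was 0.11 (95% confidence interval from 0.038 to 0.18), and the adjusted p of 0.059 from limma missed the threshold.

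*Ttll7*, the glutamylase gene, lies on chromosome 3 from 146852367 to 146984009. Young control libraries P07, P08 and P09 were at 46.4, 45.2 and 47.7 RPKM, aged control libraries P10, P11 and P12 at 42.1, 41.0 and 41.8 RPKM, and aged-repopulated libraries P01, P02 and P03 at 44.1, 46.3 and 48.0 RPKM. The aged controls lay at least 2.01 RPKM below every other library. Its log2 difference with age was -0.15 and its difference with repopulation 0.15 (SE 0.038 for both), and the adjusted p values from limma were 0.011 and 0.048.

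*Ccp110*, the centriole gene, lies on chromosome 7 from 118712552 to 118737024 and had the lowest level and the widest relative spread in both aged groups. It was at 20.8, 20.6 and 19.8 RPKM in the young control libraries P07, P08 and P09. It was at 19.1, 16.7 and 17.4 RPKM in the aged control libraries P10, P11 and P12, and at 21.7, 19.1 and 21.5 RPKM in the aged-repopulated libraries P01, P02 and P03. The coefficient of variation was 6.91% in the aged controls and 6.90% in the aged-repopulated libraries, against 2.49% in the young controls. The aged-repopulated library P02 exceeded the aged control library P10 by 0.066 RPKM, so that the groups were only just apart. The log2 difference was -0.19 with age (SE 0.058, adjusted p of 0.019 from limma) and 0.22 with repopulation (SE 0.058, adjusted p of 0.048 from limma).

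**Figure D2:**
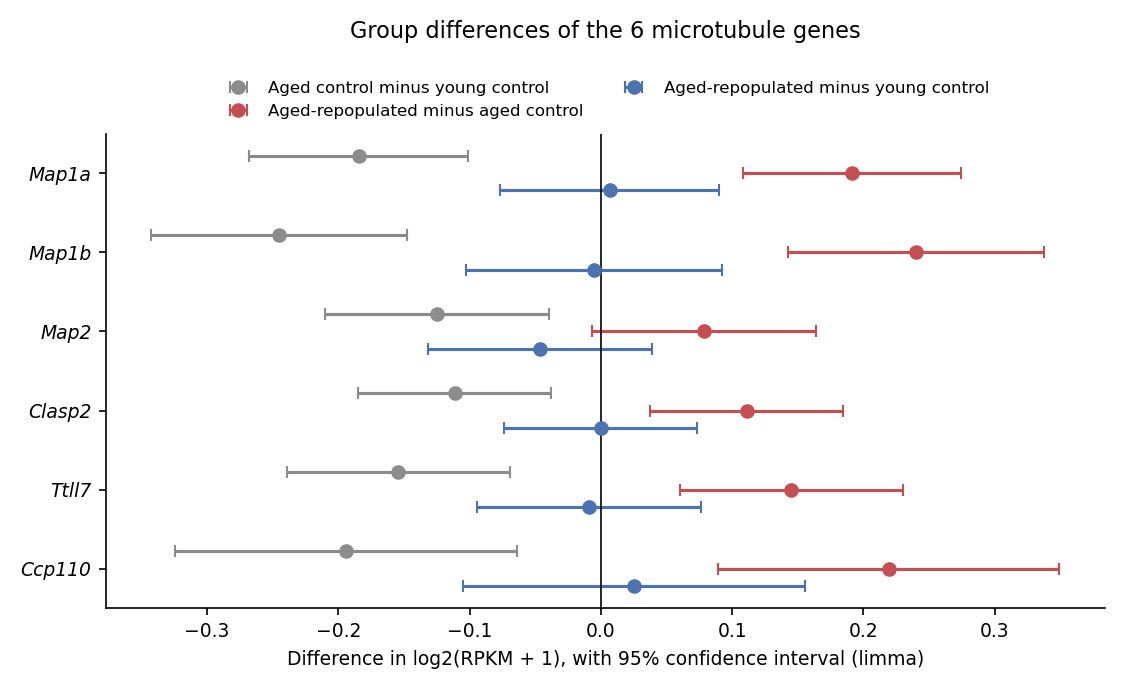
Difference in log2(RPKM + 1) between groups (horizontal axis) for each gene, with 95% confidence intervals from limma; grey is aged control minus young control, red is aged-repopulated minus aged control and blue is aged-repopulated minus young control. Grey intervals lie below 0 for all 6 genes, red intervals lie above 0 for all but *Map2*, and all blue intervals include 0.

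Between aged-repopulated and young control brains 0 of the 6 genes were called, against 4.93% of the table, and 0 had an unadjusted p under 0.05, against 28.4% of the table. In 0 of the 6 did the 2 groups separate without overlap, against 42.7% of the table. The log2 difference was 0.0067 for *Map1a* and -0.0051 for *Map1b*, with 95% confidence intervals from -0.077 to 0.090 and from -0.10 to 0.092. It was -0.00013 for *Clasp2* (from -0.074 to 0.073), -0.0090 for *Ttll7* (from -0.094 to 0.076) and 0.025 for *Ccp110* (from -0.10 to 0.16). *Map2* had the largest shortfall, with a mean of 113 ± 4.00 RPKM (SD, n = 3) in aged-repopulated brains and 116 ± 3.77 RPKM (SD, n = 3) in young controls, and an interval of the log2 difference from -0.13 to 0.039. These intervals leave room for differences of up to 0.16 on the log2 scale, and a p above the threshold does not show that the groups were alike. The sign was that of a small number: in the RPKM as deposited 2 of the 6 means (log2 scale) exceeded those of young controls, and with each library centred on its median 0 did. With that centring 0 of the 6 were called, where 23 genes of the table were called higher and 38 lower. *Map2* then had the lowest adjusted p of the 6 (0.144 from limma). The 1 of the 6 with an unadjusted p under 0.05 cannot be read on its own, because the share of the table lower at this threshold was not counted.

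The calls depended on which libraries were in the fit, over the table as well as for the 6 genes. With age, *Map1a*, *Map1b* and *Ttll7* stayed called whichever library was left out. *Clasp2* lost its call without the young control library P07 (adjusted p of 0.069 from limma), *Map2* without the young control library P09 or the aged control library P11 (0.073 and 0.051), and *Ccp110* without P07 or P11 (0.058 and 0.066). Over the table, the 114 genes called lower with age became 66 without P07, 54 without P09 and 79 without P11. With repopulation the number called was 4 with all libraries and 4 without the aged control library P10. It was 3 without P01 or P02, 2 without the young control library P09, 1 without the young control library P07, and 0 without P03, P08, P11 or P12. Over the table, 20 genes were called higher with all libraries, 44 without P10, 6 without P01, 8 without P02, 3 without P09, 2 without P07, 0 without P03 or P08 and 1 without P11 or P12. At an unadjusted p under 0.05, 6 of the 6 genes were higher without P03 and 5 of the 6 in each of the other 8 of these limma fits, against 10.2% to 14.8% of the table. All 6 differences with repopulation were still positive in each of these 9 fits. *Map1b* ranged from 0.20 to 0.28 on the log2 scale and *Map2* from 0.055 to 0.11. In a fit of only the 2 groups compared, 0 of the 6 were called higher with repopulation by limma, as were 0 of the 689 genes of the table. Without adjustment 5 of the 6 passed 0.05 as higher, against 11.8% of the table.

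Transcript length moved with these differences. The longest coding transcript of the basic annotation set (GENCODE M21, GRCm38) is 11825 nucleotides for *Map1a*, 11808 for *Map1b*, 7394 for *Ttll7*, 6258 for *Map2*, 5609 for *Clasp2* and 5073 for *Ccp110*. The median of the table is 3178.5 nucleotides, and all 6 genes are among its 172 longest genes, which start at 5000. Of those 172, 83.7% were higher after repopulation, with a median log2 difference of 0.087, and 75.6% were lower with age, with a median of -0.091. Of the 172 shortest genes 5.81% were higher after repopulation. Of the 20 genes called higher after repopulation, 19 were among the 172 longest. Over the 686 genes of the table with a matched length, all of them called by the authors' model, the trend differed between the groups. For each doubling of length, the level of a gene in a library moved by 0.046 to 0.058 in the young controls, by -0.0045 to 0.029 in the aged-repopulated libraries and by -0.091 to -0.036 in the aged controls, relative to the mean of that gene over all libraries.

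**Figure D3:**
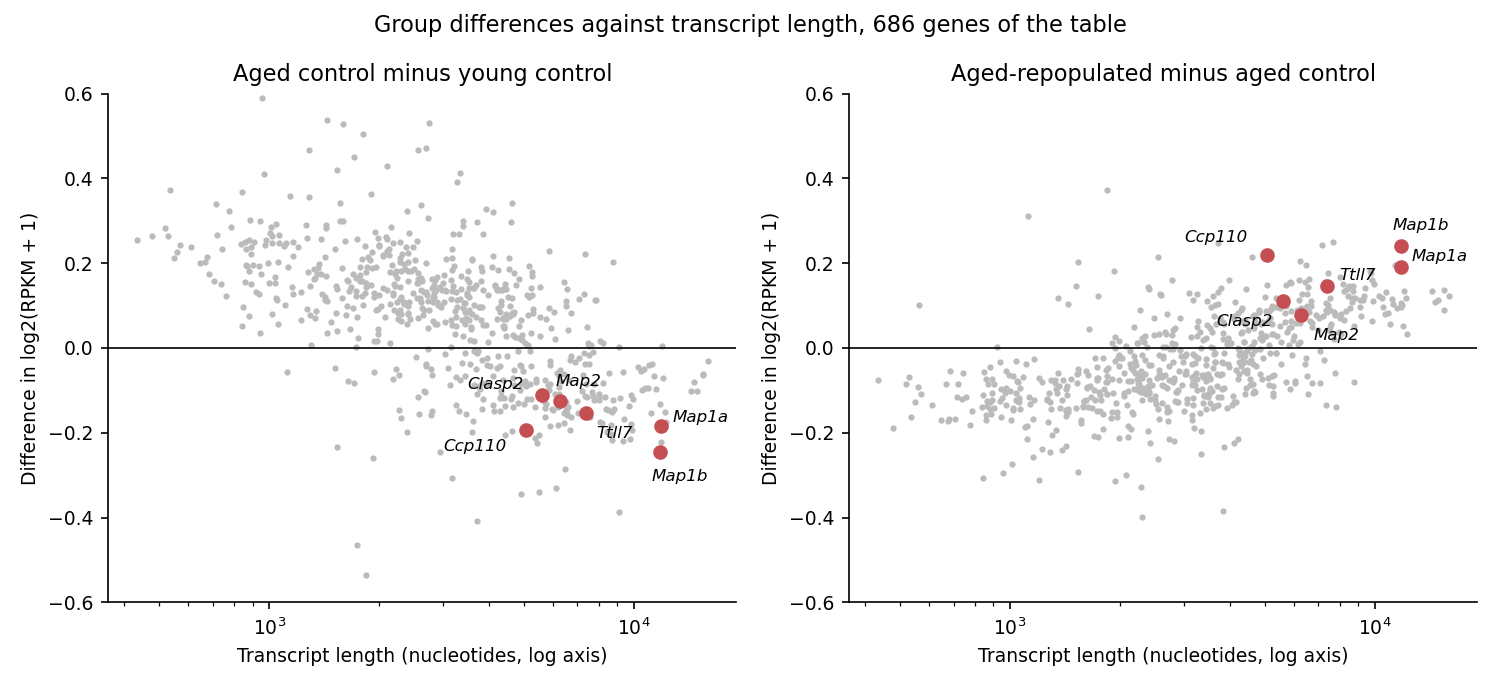
Difference in log2(RPKM + 1) against transcript length (log axis) for 686 genes of the table (grey points), with the 6 microtubule genes in red. Length is that of the longest coding transcript of the basic set, or of the longest transcript where a gene has none. With age 16 genes, and with repopulation 5, lie outside the vertical range. Short genes lie mostly above 0 with age and below 0 with repopulation, long genes the reverse.

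When the loess trend on length was removed from each library, all 6 genes were still lower with age and higher with repopulation, by smaller amounts. Their median log2 difference with age went from -0.17 to -0.082, and that with repopulation from 0.17 to 0.074, against corrected medians over the table of -0.015 and 0.0042. With age only *Ccp110* was then called (-0.19, adjusted p of 0.037 from limma), against 13.8% of the table, and 3 of the 6 had an unadjusted p under 0.05 in this direction, against 23.2%. With repopulation 0 of the 6 were called, against 1.02% of the table, and 3 of the 6, *Map1b*, *Clasp2* and *Ccp110*, had an unadjusted p under 0.05, against 10.2%. *Map1a* and *Map1b*, the longest of the 6, kept 0.073 and 0.12 of log2 differences of 0.19 and 0.24 with repopulation. *Ccp110*, the shortest, kept 0.20 of 0.22 (limma, adjusted p of 0.090). The part of the length trend in the differences of the 6 genes beyond this correction was not tested. The loess trend was fitted only to genes that the authors' model of age and microglial state had called. How much of a group difference unrelated to length it also took out was not tested.

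**Figure D4:**
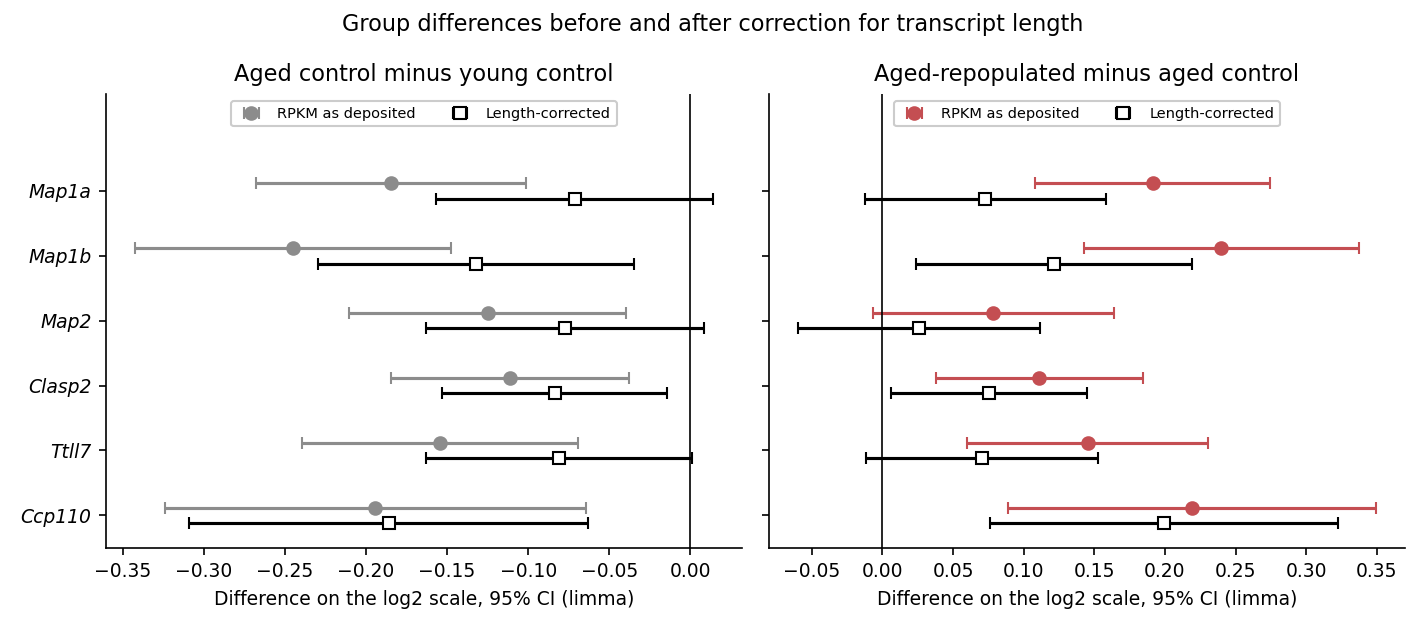
Difference between groups on the log2 scale with 95% confidence intervals from limma, for RPKM as deposited (filled circles) and after the loess correction for transcript length (open squares). Correction moved all 6 genes towards 0, least for *Ccp110*, and the corrected intervals with repopulation exclude 0 for *Map1b*, *Clasp2* and *Ccp110*.

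The order of the levels was stable across the groups. In 8 of 9 libraries RPKM fell in the order *Map2*, *Map1a*, *Map1b*, *Ttll7*, *Clasp2*, *Ccp110*. The exception was the aged-repopulated library P03, in which *Map1a* exceeded *Map2*. The neighbours *Map2* and *Map1a* overlapped in the aged-repopulated group (109 to 117 and 107 to 114 RPKM), as did *Map1a* and *Map1b* (the latter from 95.9 to 108 RPKM), and within the young and aged controls no neighbours overlapped. Summed over the 6 genes, RPKM was from 429 to 438 in young controls, from 380 to 387 in aged controls and from 422 to 439 in aged-repopulated libraries. This was 1.93% to 1.96% of the summed RPKM of the table in young controls, 1.53% to 1.64% in aged controls and 1.79% to 1.88% in aged-repopulated libraries. These shares did not overlap between any of the 3 groups, although the sums of young controls and aged-repopulated libraries did. The summed RPKM of the table also differed, from 22242.5 to 22330.4 in young controls and from 22861.5 to 23631.8 in aged-repopulated libraries. In aged controls it was from 23628.9 to 24853.5.

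Ratios taken within a library show how evenly the genes moved. The ratio of *Map1a* to *Map1b* was 1.07 ± 0.038 for young controls, 1.11 ± 0.040 for aged controls and 1.07 ± 0.039 after repopulation (SD, n = 3 each), and all 3 groups overlapped. The ratio of *Clasp2* to *Ttll7* also overlapped in all groups, from 0.820 to 0.876, from 0.854 to 0.901 and from 0.812 to 0.912. The ratio of *Map1b* to *Map2* did not: it was from 0.794 to 0.820 in aged controls, below the young controls (0.843 to 0.930) and the aged-repopulated libraries (0.847 to 0.993). These ratios are of RPKM as deposited, and *Map1b* and *Map2* differ in length (11808 and 6258 nucleotides). After the loess correction for length, described above, *Map1b* set against *Map2* overlapped in all 3 groups. The log2 levels of *Map1b* and *Map2* were then 6.64 and 6.91 in the young control library P09. They were 6.55 and 6.79 in the aged control library P11, and 6.56 and 6.81 in the aged-repopulated library P01. The ratios are given as a description. An exact permutation test of 3 libraries against 3 cannot give a p below 0.1.

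Over the 9 libraries, *Map1a*, *Map1b* and *Ttll7* were most like each other. On the log2 scale Pearson's r was 0.97 between *Map1b* and *Ttll7*, 0.93 between *Map1a* and *Map1b* and 0.93 between *Map1a* and *Ttll7*. For each of *Map1a* and *Map1b* the other members of this trio were the nearest 2 genes of the table. The third nearest were *Peg3*, an imprinted zinc finger gene (r = 0.91), and *Myh10*, a non-muscle myosin heavy chain gene (r = 0.93). After *Map1b*, the genes nearest to *Ttll7* were *Klhl11* (0.95) and *Pcdh9*, a protocadherin gene (0.93). *Map2* stood apart from the other 5 genes (r from 0.40 with *Ccp110* to 0.68 with *Ttll7*), and was nearest to *Nlgn1*, which encodes the postsynaptic adhesion protein neuroligin 1 (0.92), *Mtmr9* (0.91) and *Mgat5* (0.91). *Clasp2* was nearest to *Coro7* (0.93), *Peg3* (0.92) and *Ddhd1* (0.91), and *Ccp110* to *Vma21* (0.95), *Chd6* (0.94) and *Hgsnat* (0.92). These values describe 9 libraries that differ in group and in their trend on length, and genes selected for differing between the same groups.

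Other genes of the microtubule system were read from a list of 224 symbols, of which 10 are in the table. None of the 17 tubulin genes and none of the 17 severing or destabilising genes of the list are among its 689 genes, and their levels are not analysed here. Of the 10 genes, 5 were called lower and 3 higher with age, against 16.5% and 46.3% of the table. With repopulation 0 were called higher and 1 lower, against 2.9% and 5.81% of the table. Between aged-repopulated and young control brains 0 were called, against 4.93% of the table. Their median log2 difference was -0.081 with age and 0.046 with repopulation. The gene closest in function to *Ttll7* is *Agtpbp1*, which encodes the carboxypeptidase CCP1 that removes glutamates from tubulin. It was 31.0 ± 0.837 RPKM in the young controls, 27.4 ± 1.33 in the aged controls and 30.5 ± 1.33 after repopulation (SD, n = 3 each), and the aged controls did not overlap either group. It fell with age by 0.18 on the log2 scale (adjusted p of 0.012 from limma), and its difference with repopulation was 0.15 (adjusted p of 0.059 from limma).

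Among the other genes that were called lower with age, *Dpysl3*, a collapsin response mediator of growing neurites, had a log2 difference of -0.34, *Ttbk2*, a tau tubulin kinase that also acts at the base of cilia, of -0.15, *Cep170*, a centrosomal protein gene, of -0.13, and *Pafah1b1*, which encodes the dynein regulator LIS1, of -0.087. Their adjusted p values with repopulation were 0.273, 0.083, 0.422 and 0.273 from limma. *Pfdn5*, a subunit of the prefoldin that hands unfolded tubulin to its chaperone, *Map7*, a microtubule-binding gene, and *Cetn3*, a centrin of the centriole, were called higher with age, by 0.25, 0.14 and 0.13. *Cetn3* was the only gene of the list called with repopulation, at 41.2 ± 1.29 RPKM in the aged controls and 34.8 ± 2.61 RPKM after repopulation (SD, n = 3 each), a log2 difference of -0.24 (adjusted p of 0.037 from limma). Its differences were opposite in sign to those of *Ccp110* in both contrasts. The differences of *Cep170* and *Pcm1*, which belong to the centriole and cilium genes of the list with *Cetn3*, had the sign of *Ccp110* (-0.13 and -0.076 with age, 0.043 and 0.064 with repopulation). The transcript of *Cetn3* is 1226 nucleotides long and that of *Pfdn5* 1062, both among the 172 shortest of the table, while those of *Agtpbp1* and *Ttbk2* are 8174 and 11152. *Mast2* and *Pcm1* were called in no contrast.

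**Figure D5:**
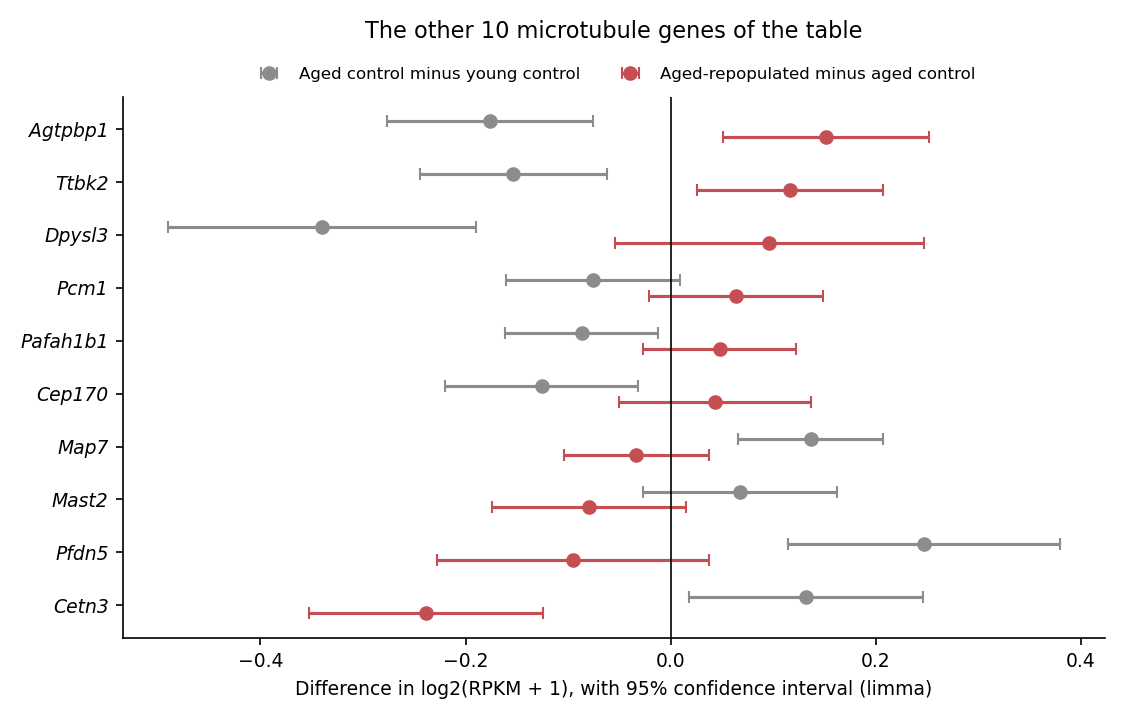
Difference in log2(RPKM + 1) with 95% confidence intervals from limma for the 10 other microtubule genes of the table, ordered by their difference with repopulation; grey is aged control minus young control and red is aged-repopulated minus aged control. *Agtpbp1* lies below 0 with age and above 0 with repopulation (-0.18 and 0.15), and *Cetn3* the other way (0.13 and -0.24).

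The libraries are of whole hemibrain tissue, in which fewer cells of a type and less RNA per cell cannot be told apart. Of 20 neuronal marker genes 3 are in the table (*Rbfox3*, *Gad1* and *Snhg11*), and none of them is at 0. Their summed level was 562 to 584 RPKM in young controls, 631 to 693 in aged controls and 605 to 622 in aged-repopulated libraries. Most of this sum is *Snhg11*, with a mean of 465 RPKM in aged controls. Of the whole table, 67.8% of genes were higher with age, and these 3 markers were selected with it. Their sum is therefore no measure of the number of neurons. Of 20 microglial markers 8 are in the table, with sums of 155 to 161, 229 to 272 and 219 to 318 RPKM in these groups. Of 13 astrocyte markers 2 are in the table (422 to 440, 473 to 509 and 467 to 504 RPKM), and of 13 endothelial markers 3 (55.9 to 56.1, 46.6 to 53.7 and 41.9 to 51.5 RPKM). Of 16 oligodendrocyte markers only *Opalin* is in the table (15.5 to 19.0, 10.9 to 13.2 and 12.1 to 19.2 RPKM), and of 9 ependymal and choroid plexus markers none is. The 3 endothelial markers went different ways with age, with log2 differences of 0.37 for *Ly6c1*, -0.46 for *Itm2a* and -0.027 for *Slco1a4*. All these markers were selected with the table, so that the sums of the other cell types are no measure of cell number either. The part of cell composition in the differences of the 6 genes was not tested.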

How the data were processed

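RNA-seq libraries of 9 hemibrains (3 per group) were analysed. By the study's methods and the submitters' processing notes, bases were called with CASAVA 1.8.2 and reads aligned to mm10 with ELAND; the counting step is not given in the sources used here. The authors deposited RPKM per library for the 689 genes their linear model of age and microglial state had called, after a filter that their methods give as RPKM above 10. There, 673 genes have a mean above 10 over these 9 libraries and 621 are above it in each, and the lowest value is 3.46. F, t and p columns of that model in the table were not used. No library column was left unmapped (0 columns).

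From these values, log2(RPKM + 1) was fitted with limma 3.58.1 in R 4.3.3 over all 9 libraries, with Benjamini-Hochberg adjustment over 689 genes at 0.05, two-sided. Each library being 1 mouse, the p values rest on spread between mice. For each gene limma pools this spread over the 3 groups and draws it towards that of all genes of the table. Those genes were selected with a model that included these mice. Transcript lengths and coordinates came from GENCODE M21 (GRCm38, also called mm10), where 686 symbols were found, 19 by a former symbol. The length of a gene was that of its longest coding transcript in the basic set, or of its longest transcript where it has none. The loess correction used a span of 0.75. Like median centring and quantile normalization, it was computed from genes of the table alone, all of them called by the authors' model. The code was tested on simulated data. Tables and plots used Python 3.11.15, pandas 2.3.3 and matplotlib 3.10.9.

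The 6 genes and the lists were chosen with earlier results of these data known. Named genes are the 6 genes, the 3 genes most correlated with each, and the list genes found in the table. Alternatives were a pseudocount of 0.1 or 10, untransformed RPKM, median centring, quantile normalization, correction for length or GC content (the latter chosen after seeing the data), a minimum mean of 20 RPKM, fitting only the groups compared, a threshold of 0.025 and leaving out each library.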

Additional observations from a re-analysis of the deposited data

How the results depend on the processing

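The count of the 6 genes called lower with age was 6 with all libraries and from 4 to 6 with each library left out, where the 114 genes of the table called lower became from 54 to 113. It was 1 after the correction for transcript length and 5 or 6 under the other 9 alternatives, where *Ccp110* falls under a minimum mean of 20 RPKM and was then not tested. Over the table, 95 genes were called lower with age after that correction. Under the other 9 this ranged from 66 of 341 genes (minimum mean of 20 RPKM) to 215 of 689 (centring). The count called higher with repopulation was 4 with all libraries and from 0 to 4 with each left out. It was 2 with untransformed RPKM, 0 after the length correction, 0 with only the groups compared and 1 at a threshold of 0.025. It was from 3 to 6 under the other 6 alternatives, highest with centring. The calls of all genes rose with centring too: 111 of 689 were called higher and 22 lower, against 20 and 40 in the main fit. These counts were 21 and 40 with a pseudocount of 0.1, and 16 and 38 with a pseudocount of 10. With a minimum mean of 20 RPKM they were 10 and 21 of 341 genes. Of the 6 genes, 0 were called after repopulation against young controls under all 19 alternatives. Few genes of the table were called in this contrast either. The counts higher and lower were 29 and 5 in the main fit, 23 and 38 with centring and 26 and 45 with length correction. They were 5 and 1 with untransformed RPKM. No difference with age or repopulation changed sign. Against young controls, signs turned where differences were small: *Map1a* was -0.047 with centring, -0.031 with quantile normalization and -0.080 with GC correction, and *Ccp110* was -0.028, -0.049 and -0.00033. With a library left out the range was from -0.021 to 0.022 for *Map1a*, from -0.047 to 0.037 for *Map1b*, from -0.018 to 0.022 for *Clasp2*, from -0.038 to 0.022 for *Ttll7* and from -0.0051 to 0.081 for *Ccp110*. The sign turned without P01 (*Map1b* 0.037, *Ttll7* 0.022, *Ccp110* -0.0051), without P02 (*Clasp2* 0.0091), without P03 (*Map1a* -0.021, *Clasp2* 0.0064, *Ccp110* -0.00058), without P07 (*Map1a* -0.00060, *Map1b* 0.015, *Clasp2* 0.022) and without P09 (*Ttll7* 0.010). The length correction takes out a trend that differs between the groups over the genes of the table. Except for the stricter threshold, the cause of these changes was not tested. Over the table, the counts called higher and lower with repopulation went from 20 and 40 to 52 and 21 with quantile normalization, 45 and 24 with GC correction, 7 and 9 with length correction, 6 and 15 with untransformed RPKM, 0 and 5 with only the groups compared, and 2 and 8 at a threshold of 0.025, and lay from 0 to 44 and from 2 to 97 with a library left out. With age they went from 319 and 114 to 88 and 189, 108 and 182, and 63 and 95 under the first 3 of these. No paired analysis was possible because the labels give no number shared between groups. Without read counts, depth sets no limit that could be stated.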
